A study of Mus musculus with 7 samples.

Results

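Platelets are shed by megakaryocytes, large polyploid cells that reside in the bone marrow and, in mice, also in the red pulp of the spleen. The 7 genes described here encode proteins of that lineage: the granule chemokines Pf4 (platelet factor 4) and Ppbp (pro-platelet basic protein), the integrin chain Itga2b (CD41), the von Willebrand factor receptor subunits Gp1bb and Gp9, and the receptors Treml1 and Clec1b. They were taken by symbol: a probe set belonged to the group when the platform annotation gave it 1 of these 7 symbols and no other. This gave 8 probe sets of 22626 on the array, 1 for each gene and a further one for Gp1bb, and 7 genes of the 12393 that had a probe set with a single symbol. A ninth probe set, whose annotation joins Gp1bb with another gene, was left out.

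The series addresses the ICOS costimulatory pathway in acute graft-versus-host disease. All recipients were female C57BL/6 (B6) mice aged 9 to 12 weeks that had received 10.0 Gy of gamma irradiation and an infusion of splenocytes, depleted of red cells, 4 to 6 h later, and spleen cells were collected on day 4. The first group received C3H/HeN splenocytes (allogeneic) and an antibody against the ICOS ligand (anti-ICOSL) from day 0 (2 arrays). The second received C3H/HeN splenocytes and the same antibody from day 3 (2 arrays), the third C3H/HeN splenocytes and control rat IgG (isotype, 2 arrays), and the fourth B6 splenocytes with no antibody named in its labels (syngeneic, 1 array). The first antibody dose was 500 µg and later doses were 200 µg every other day. Labels do not give the first day of the control IgG. Each experiment had 4 mice a group, and RNA of allogeneic mice was combined before hybridization to the 2 arrays of a group, so p-values measure the spread between arrays, which may be technical. Against the syngeneic array, the strain of the donor, its response to the host and the injected antibody cannot be told apart. Recipient blood cells and their precursors had been irradiated in all groups.

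In mouse blood cell formation the transcription factor Gata1 acts with Fli1, Runx1 and Nfe2 to switch on megakaryocyte genes, and thrombopoietin drives the expansion of the cells. Mature platelets carry little RNA, and Pf4 and Ppbp are among their most abundant transcripts. Activated platelets release both chemokines from alpha granules, while Itga2b, Gp1bb and Gp9 hold the platelet to the vessel wall and to each other.

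The values are MAS5 signals, a linear measure of brightness per probe set that is scaled to the same trimmed mean on each array. Mean signals of the members lay near the middle of the array, between the 35.7th (Ppbp) and the 66.7th percentile (Pf4) of all probe sets for the probe sets used. The 40th percentile of all signals, 99.7, served as the level for testing: testing was limited to probe sets with 1 or more group means at or above it. All 7 genes had a tested probe set. Ppbp reached the level only through its value on the syngeneic array (113.0). Its means were 97.0 for day 0, 63.9 for day 3 and 65.6 for isotype. Pf4 and Itga2b stood above that level on all 7 arrays, whereas Ppbp was below it on 5 arrays, Clec1b on 4, Gp1bb on 3, Gp9 on 2 and Treml1 on 1. The second Gp1bb probe set (19.97 to 102.7 over the arrays) did not reach the level in any group mean and was not tested. The markers of spleen lymphocytes and Ptprc, with 8 of 9 genes on the array under a single symbol, had no signal under 815.4 on any array. In bulk samples fewer cells of a type and less RNA per cell cannot be told apart.

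**Figure D1:**
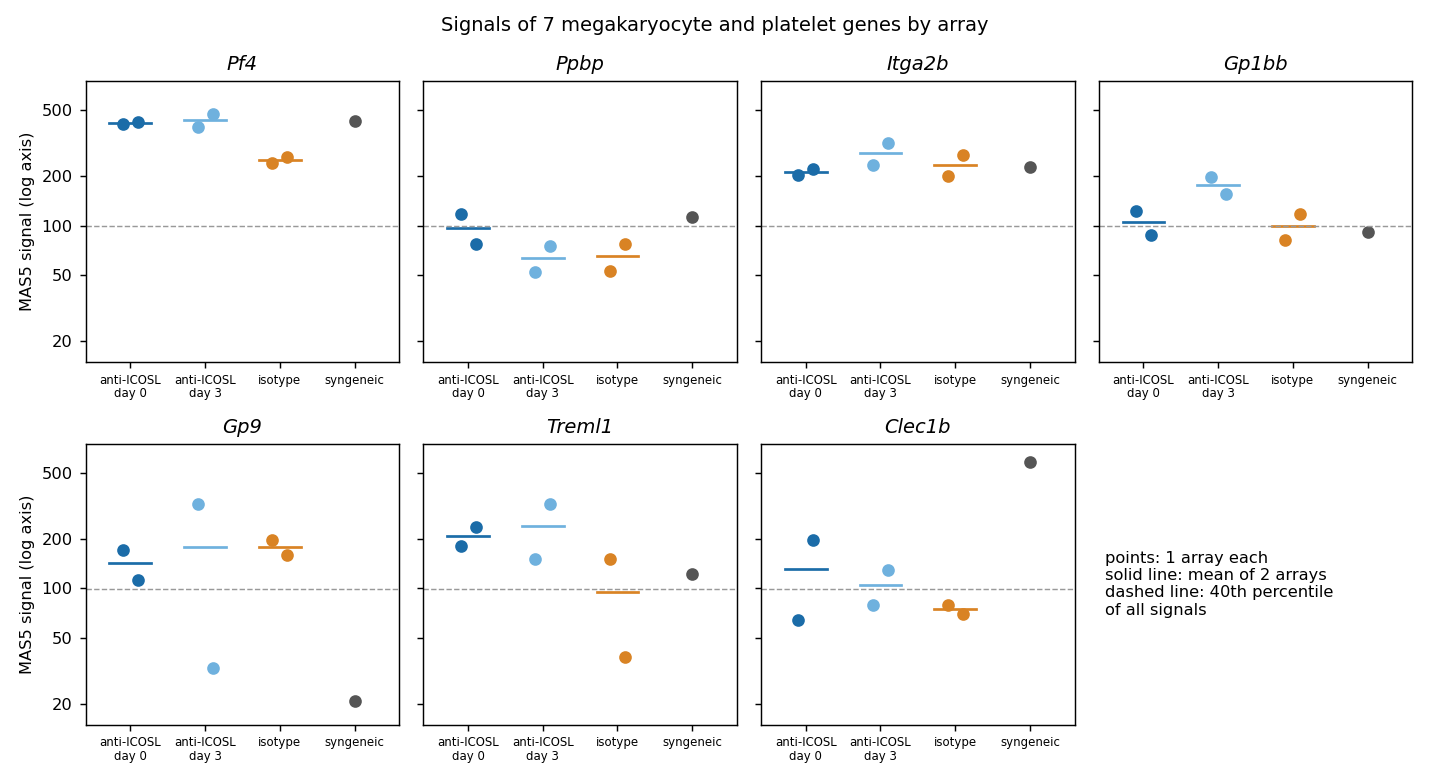
MAS5 signal (log axis) of the 7 genes, 1 probe set each, on the arrays of the 4 groups. Each point is 1 array, solid lines are means of 2 arrays and the dashed line is the 40th percentile of all signals (99.7); Pf4 was lower on both isotype arrays than on every other array, and Clec1b was highest on the syngeneic array.

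Comparisons came from 1 limma fit over all 7 arrays on log2(signal + 50), with adjustment by Benjamini and Hochberg over 15372 tested probe sets and a threshold of 0.05. Changes are log2 differences, given with the standard error (SE) of that fit.

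Isotype and syngeneic arrays set an allogeneic against a syngeneic transplant, with no blockade of the ligand in either. Control IgG was named for the isotype arrays only. Clec1b was the 1 gene of the 7 that passed, and it fell. Of the 6 others, Pf4, Ppbp and Treml1 had values below 0 and Itga2b, Gp1bb and Gp9 above 0. Among all tested probe sets 6.62% passed in this comparison, and 23% had an unadjusted p under 0.05, as did 2 of the 7 genes (Clec1b and Pf4). The syngeneic array lay outside the range of the isotype arrays for 4 of the 7 genes, against 76.9% of tested probe sets. The median change of the 7 genes was −0.37, compared with −0.01 over all tested probe sets. That median and the count of 4 include Ppbp, which was tested only because of its syngeneic value. The filter thus favoured a value below 0 for Ppbp in both. With 1 syngeneic array, that array is assumed to vary like the others.

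Clec1b encodes CLEC-2, a C-type lectin that binds podoplanin and is carried by platelets and, in mice, also by some myeloid cells. Its signal was 79.8 and 69.9 on the isotype arrays, against 578.3 on the syngeneic array. On the anti-ICOSL arrays it was 64.0 and 196.9 from day 0, and 79.8 and 128.6 from day 3. No allogeneic array reached the syngeneic level, and the highest of them was the second day 0 array. The isotype minus syngeneic change was −2.33 ± 0.46 SE (limma adjusted p = 0.0354), and 1.07% of tested probe sets changed more in either direction. The call did not hold without either isotype array (adjusted p = 0.0955 and 0.116), without either day 3 array (0.0519 and 0.0509), with a pseudocount of 16 (0.0701) or with no filter (0.0735).

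The Clec1b promoter is shown because Clec1b was the 1 member that passed a test. The window runs from 250 bases before to 50 after the annotated start (chr6:129397047-129397346, + strand, RefSeq, GRCm38.p6), and capitals mark GATA motifs, the letters bound by GATA factors.
Clec1b: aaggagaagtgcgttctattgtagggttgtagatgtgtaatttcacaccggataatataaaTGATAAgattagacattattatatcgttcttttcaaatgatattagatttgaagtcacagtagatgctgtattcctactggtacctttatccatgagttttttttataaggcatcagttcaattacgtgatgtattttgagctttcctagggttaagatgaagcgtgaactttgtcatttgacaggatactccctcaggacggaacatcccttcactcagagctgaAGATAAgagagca
Motifs were searched on both strands. A GATA motif was TGATAA in its first form, with AGATAA as the second form, TGATAG as the third and AGATAG as the last. An ETS motif, for the family of Fli1, was AGGAAG in its usual form or else the related CGGAAG. A RUNX motif was TGTGGT. The Clec1b window held 2 GATA matches, 189 bases upstream and 37 bases downstream of the start, and no ETS match.

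Gp9 and Gp1bb are small leucine-rich subunits of the GPIb-IX-V complex, which catches von Willebrand factor. Gp9 had 195.2 and 159.3 on the isotype arrays, against 20.9 on the syngeneic array. Both isotype arrays were above the syngeneic one, which was far under the testing level. The change was 1.68 ± 0.79 SE and did not pass (adjusted p = 0.273). Its large SE goes with the day 3 arrays, where Gp9 was 325.3 and 32.9, a ratio of 9.90 between arrays of 1 group. Fitted without the first or the second day 3 array, Gp9 passed (adjusted p = 0.0374 and 0.0364), as it did with the isotype and syngeneic arrays alone (0.0387). The tested Gp1bb probe set had 81.97 and 118.3 on the isotype arrays, against 92.2 on the syngeneic array, which lay between them (0.07 ± 0.26, adjusted p = 0.910).

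Pf4, a CXC chemokine that binds heparin, was 238.5 and 261.6 on the isotype arrays, against 427.1 on the syngeneic array. Both isotype arrays lay below it. The change was −0.67 ± 0.21 SE, with an unadjusted p of 0.0161 that did not pass after adjustment (adjusted p = 0.121; 0.0525 to 0.226 over the alternatives). Ppbp, the other CXC chemokine and the precursor of neutrophil-activating peptide NAP-2, was 53.3 and 77.9 on the isotype arrays, against 113.0 on the syngeneic array (−0.50 ± 0.27, adjusted p = 0.330). Since Ppbp was tested only because of that syngeneic value, its lower isotype values were favoured by the filter. Pf4 and Ppbp are adjacent on chromosome 5, with 0 annotated genes between them.

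Itga2b pairs with Itgb3 to form the platelet fibrinogen receptor. It was 200.5 and 266.6 on the isotype arrays, against 225.1 on the syngeneic array. The syngeneic value lay between the isotype values, and the difference of 0.03 had a 95% interval of −0.58 to 0.65. Treml1 (TLT-1) is a receptor that is kept in alpha granules and reaches the surface on activation. It was 150.5 and 38.6 on the isotype arrays, against 121.8 on the syngeneic array, so the isotype arrays differed 3.90-fold between themselves and lay on either side (−0.37 ± 0.55, adjusted p = 0.748).

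The summed signal of the 7 genes was 992.2 to 999.7 on the isotype arrays, against 1578 on the syngeneic array. Without Clec1b it was 919.9 to 922.3, against 1000.0. Without both Clec1b and Pf4 the order turned, with 660.7 to 681.5 on the isotype arrays, against 572.9 on the syngeneic array. That remainder includes Gp9, which was 195.2 and 159.3 on the isotype arrays, against 20.9 on the syngeneic array. Ppbp was lower on both isotype arrays, and the syngeneic values of Itga2b, Gp1bb and Treml1 lay between the isotype values. The order of the sums thus depended on which genes were included.

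Markers of other cells moved in the same comparison, in which 6.62% of all tested probe sets passed. Macrophage markers fell in 13 of 13 genes. Their summed signal was 9996 to 10399 on the isotype arrays, against 79555 on the syngeneic array. Among them Cd163 was 66.4 and 66.5 on the isotype arrays, against 417.5 on the syngeneic array. Cd163 was tested only because of that syngeneic value, so its fall was favoured by the filter. Neutrophil markers fell in 9 of 10 (11114 to 11426, against 42219), and erythroid markers in 5 of 10 tested (8223 to 8249, against 26249). Of the endothelial markers 0 of 4 tested passed limma, with 2 at an unadjusted p under 0.05 (23% of all tested probe sets), and of the mast cell and basophil markers 1 of 5 fell (Kit). Of the lymphocyte markers and Ptprc 1 of 8 passed, Cd4, which rose. Their summed signal was 38045 to 42981 on the isotype arrays, against 42185 on the syngeneic array. The 3′ control signal divided by the 5′ one reflects RNA integrity. For Gapdh it was 0.767 to 0.784 on the isotype arrays, against 0.957 on the syngeneic array. Actb showed little such gap, with a syngeneic value of 1.028 beside isotype values of 1.004 and 1.021. No marker was listed at 0. Their part in the values of Clec1b and Pf4 was not tested.

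**Figure D2:**
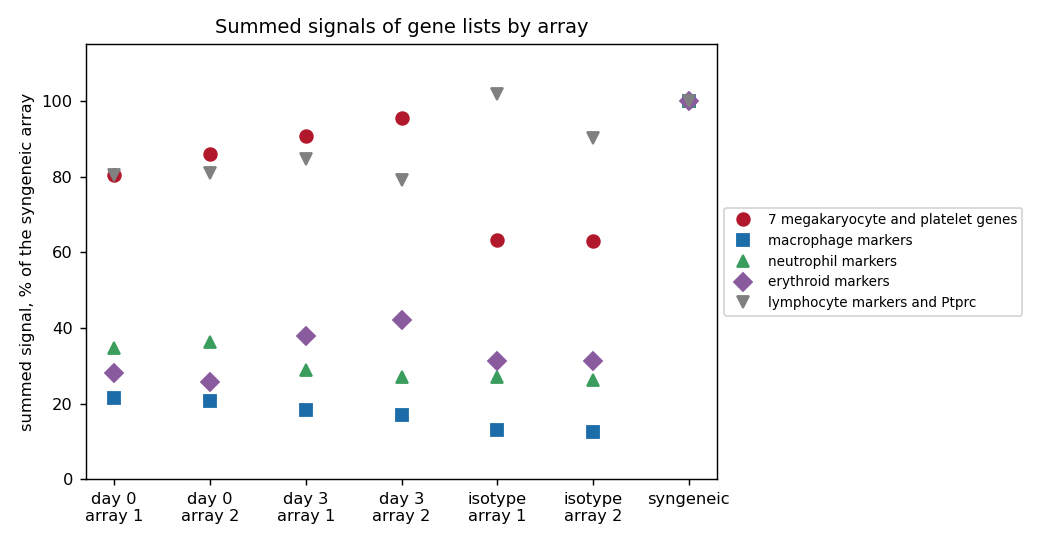
Summed MAS5 signal of the 7 megakaryocyte and platelet genes and of 4 lists of markers on each array, as a percentage of the syngeneic array. The 7 genes stood at 62.9 to 63.3% on the isotype arrays, and macrophage markers at 12.6 to 13.1%.

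Other megakaryocyte and platelet genes were read from 5 lists with 82 genes, of which 72 had a probe set with a single symbol and 57 were tested. Between isotype and syngeneic arrays 7 fell and 3 rose, which is 17.5% of the 57, against 6.62% of all tested probe sets. An unadjusted p under 0.05 was found for 28 (49.1%), against 23%. The median change over the 57 was −0.21. Among transcription factors 3 of 14 fell: Tal1 (−2.08 ± 0.29 SE, adjusted p = 0.0130), Gata1 (−1.60 ± 0.21, adjusted p = 0.0116) and Nfe2 (−1.30 ± 0.27, adjusted p = 0.0396). All 3 also act in red cell precursors, and Gata1 was 243.4 and 234.2 on the isotype arrays, against 824.4 on the syngeneic array. Fli1, an ETS factor of megakaryocytes, lymphocytes and endothelium, was 666.1 and 609.9 on the isotype arrays, against 370.6 on the syngeneic array (adjusted p = 0.129).

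Among adhesion receptors 2 of 12 fell. F11r (JAM-A), a junctional adhesion molecule of platelets, leukocytes and endothelium, changed by −2.39 ± 0.49 (adjusted p = 0.0404), and Cd84, a SLAM family receptor of many blood cells, by −1.54 ± 0.22 (adjusted p = 0.0133). Itgb3, the partner of Itga2b, was 126.8 and 221.7 on the isotype arrays, against 68.6 on the syngeneic array (0.89 ± 0.32, adjusted p = 0.168). Gp5, a subunit of the same complex as Gp1bb and Gp9, was 114.6 and 241.4 on the isotype arrays, against 265.7 on the syngeneic array (adjusted p = 0.448). Of the agonist receptors, P2ry12, the ADP receptor that clopidogrel blocks, fell (−1.20 ± 0.22, adjusted p = 0.0306). So did Kit, the stem cell factor receptor of progenitors and mast cells (−1.21 ± 0.21, adjusted p = 0.0249). F2rl3, the thrombin receptor PAR4, rose (1.12 ± 0.22, adjusted p = 0.0375) to 221.0 and 180.3 on the isotype arrays, against 64.8 on the syngeneic array.

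Granule and secreted genes had 0 of 10 past the limma threshold, with 2 at an unadjusted p under 0.05, near the 23% of all tested probe sets. Their largest values were those of Pdgfb (−1.003 ± 0.53) and F13a1, a clotting factor chain also made by macrophages (−0.92 ± 0.22, adjusted p = 0.0595). Of the signalling and cytoskeleton genes 2 of 15 rose, the tropomyosin Tpm4 (1.48 ± 0.21, adjusted p = 0.0130) and Prkcq (1.20 ± 0.23, adjusted p = 0.0317), a kinase that is also central to T cell activation. Of these 10 calls that of Gata1 held under all 14 alternatives, with a highest adjusted p of 0.04998. Those of Cd84 and Tpm4 each ended without isotype array 1 (adjusted p = 0.0542 and 0.0518), and that of Tal1 without either isotype array (up to 0.0595). Those of F11r, P2ry12, F2rl3, Kit, Prkcq and Nfe2 each ended under 6 to 9 alternatives. Without isotype array 1 the count of 10 was 1, without isotype array 2 it was 3, and without any 1 of the other allogeneic arrays it was 4 to 6.

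**Figure D3:**
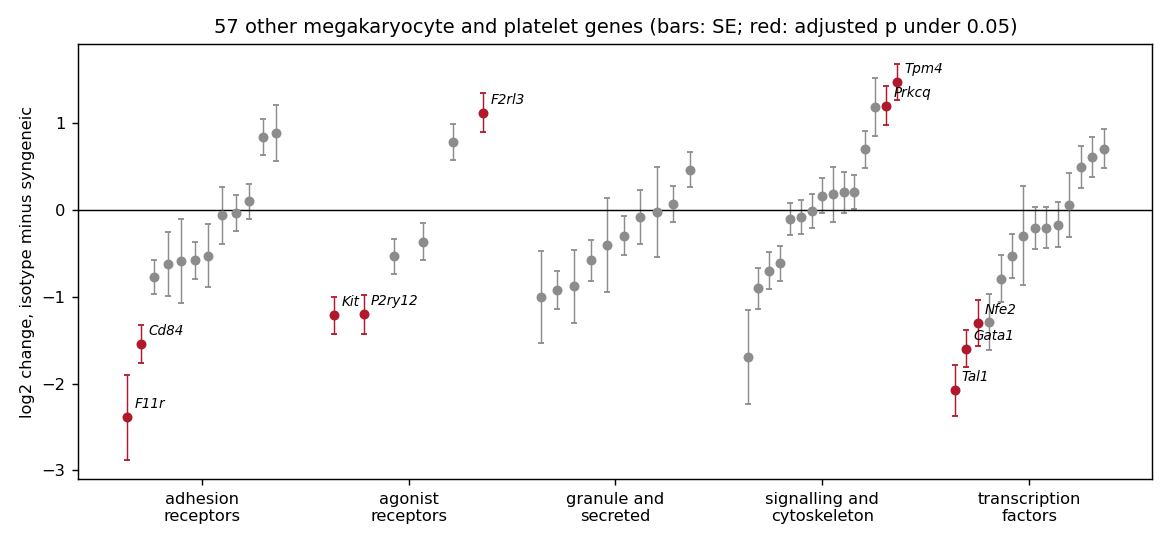
Log2 change of the 57 other tested genes between isotype and syngeneic arrays, by list. Points are fitted changes, bars are SE of the limma fit and red points have an adjusted p under 0.05; the 7 red points below 0 include Tal1 (−2.08) and Gata1 (−1.60).

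The comparisons of the anti-ICOSL groups with isotype ask what blockade of the ligand, from the transplant or from day 3, changes in the allogeneic spleen. They share the isotype arrays, so their values are not independent. Pf4 was the member whose arrays separated in both. Its signal was 410.1 and 426.5 on the day 0 arrays, with 394.2 and 474.1 on the day 3 arrays, against 238.5 and 261.6 on the isotype arrays. All 4 anti-ICOSL arrays were above both isotype arrays, and the syngeneic value of 427.1 lay within their range. The change was 0.64 ± 0.17 SE from day 0 (unadjusted p = 0.00789, limma adjusted p = 0.578) and 0.69 ± 0.17 from day 3 (unadjusted p = 0.00580, limma adjusted p = 0.384). With both antibody groups set against isotype it was 0.66 ± 0.15, a 1.59-fold difference with a 95% interval of 0.31 to 1.02 on the log2 scale (adjusted p = 0.375; 0.229 to 0.627 over the alternatives). Over the alternatives the pooled change stayed between 0.59 and 0.73.

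The Pf4 promoter (chr5:90772185-90772484, + strand, RefSeq, GRCm38.p6) is shown because Pf4 gave the clearest separation of antibody from isotype arrays, and capitals mark GATA and ETS motifs, which read as their reverse complement where the match is on the opposite strand.
Pf4: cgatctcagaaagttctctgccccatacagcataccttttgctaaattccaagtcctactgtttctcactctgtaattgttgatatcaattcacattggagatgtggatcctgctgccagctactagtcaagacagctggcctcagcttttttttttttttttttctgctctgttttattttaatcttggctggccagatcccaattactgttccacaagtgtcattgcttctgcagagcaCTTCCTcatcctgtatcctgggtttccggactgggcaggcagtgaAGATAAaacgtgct
It held a GATA match 36 bases downstream and an ETS match 9 bases upstream of the annotated start. Of the 7 member windows 3 held a GATA match, 4 an ETS match, 1 a RUNX match and 2 both GATA and ETS. Of all 32851 windows of the same length 29.8% held a GATA match, 46.5% an ETS match, 16.8% a RUNX match and 12.6% both GATA and ETS. The other member window with both motifs was that of Gp1bb (chr16:18622354-18622653, − strand, same source and build), shown here for comparison with the same capitals.
Gp1bb: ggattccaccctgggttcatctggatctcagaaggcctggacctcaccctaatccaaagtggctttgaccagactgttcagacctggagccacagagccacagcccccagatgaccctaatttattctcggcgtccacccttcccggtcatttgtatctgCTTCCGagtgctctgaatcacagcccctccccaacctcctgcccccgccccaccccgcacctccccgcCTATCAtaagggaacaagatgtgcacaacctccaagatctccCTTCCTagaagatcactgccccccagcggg
Its GATA match lay 22 bases upstream of the start, and its ETS matches lay 90 bases upstream and 20 bases downstream. A match describes letters in a window and is not evidence of binding. The windows of Ppbp and Treml1 held no match to any of the 3 motifs.

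None of the 7 genes passed limma in the comparison of day 0 with isotype, where 0% of tested probe sets passed. An unadjusted p under 0.05 was found for 1 of the 7 (Pf4), against 7.18% of tested probe sets. Day 0 and isotype values were fully separate for 2 of 7 (Pf4 and Treml1), against 35.5%. The median change of the 7 genes was 0.34, against 0.02 over all tested probe sets. For day 3 against isotype none passed either, where again 0% of tested probe sets did. An unadjusted p under 0.05 was found for 2 (Pf4 and Gp1bb), against 10.2%, and arrays did not overlap for 3 of 7 (Pf4, Gp1bb and Clec1b), against 43.1%. For Clec1b the nearest values of the groups were both 79.8 after rounding. The median change was 0.29, against 0.03. With both antibody groups set against isotype 0 of 7 genes and 0% of tested probe sets passed limma. An unadjusted p under 0.05 was found for 2 of 7 (Pf4 and Treml1), against 9.35%, and arrays did not overlap for 1 of 7 (Pf4), against 18.2%. The median pooled change was 0.33, against 0.02.

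Treml1 had the largest fitted change of the 7 genes in these comparisons. It was 180.3 and 234.9 on the day 0 arrays, with 149.9 and 324.4 on the day 3 arrays, against 150.5 and 38.6 on the isotype arrays. The day 0 arrays lay above both isotype arrays, while the first day 3 array and the first isotype array were nearly level. The changes were 0.94 ± 0.45 SE from day 0 (adjusted p = 0.747) and 1.04 ± 0.45 from day 3 (adjusted p = 0.508). The pooled change of 0.99 was 0.40 without the second isotype array and 1.58 without the first, so its size rested on 1 dim isotype value.

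The tested Gp1bb probe set was 123.2 and 87.9 on the day 0 arrays, with 198.1 and 156.2 on the day 3 arrays, against 82.0 and 118.3 on the isotype arrays. The day 3 arrays lay above all others, and the day 0 and isotype arrays overlapped. The change from day 3 was 0.60 ± 0.22 SE (unadjusted p = 0.0297, adjusted p = 0.452). The second Gp1bb probe set, dimmer and not tested, was 71.9 and 19.97 on the day 0 arrays, with 65.7 and 102.7 on the day 3 arrays, against 47.9 and 62.0 on the isotype arrays. There too both day 3 arrays were above the isotype arrays, while the first of them was below the first day 0 array.

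Gp9, the partner of Gp1bb, gave no direction. It was 171.8 and 112.5 on the day 0 arrays, with 325.3 and 32.9 on the day 3 arrays, against 195.2 and 159.3 on the isotype arrays. The 2 day 3 arrays held the highest and the lowest of these 6 values. The change from day 3 was −0.36 ± 0.65 SE, which became 0.73 without the second day 3 array and −1.45 without the first.

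Ppbp was 117.0 and 77.0 on the day 0 arrays, with 52.8 and 75.1 on the day 3 arrays, against 53.3 and 77.9 on the isotype arrays. The antibody and isotype arrays overlapped in both comparisons (0.34 ± 0.22 from day 0 and −0.02 ± 0.22 from day 3). Ppbp thus had no separation from isotype where its neighbour Pf4 did, but its allogeneic group means were all under the testing level. Its 95% interval from day 0, −0.19 to 0.87, included the Pf4 value of 0.64. Itga2b was 201.2 and 219.8 on the day 0 arrays, with 233.4 and 316.3 on the day 3 arrays, against 200.5 and 266.6 on the isotype arrays. These ranges overlapped as well, and the pooled difference of 0.04 had a 95% interval of −0.39 to 0.48. Its sign turned under quantile normalization (−0.02) and median centring (−0.03). Clec1b differed by 0.43 ± 0.37 from day 0 and 0.29 ± 0.37 from day 3 (adjusted p = 0.858 and 0.820), and its day 0 arrays differed 3.08-fold between themselves.

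**Figure D4:**
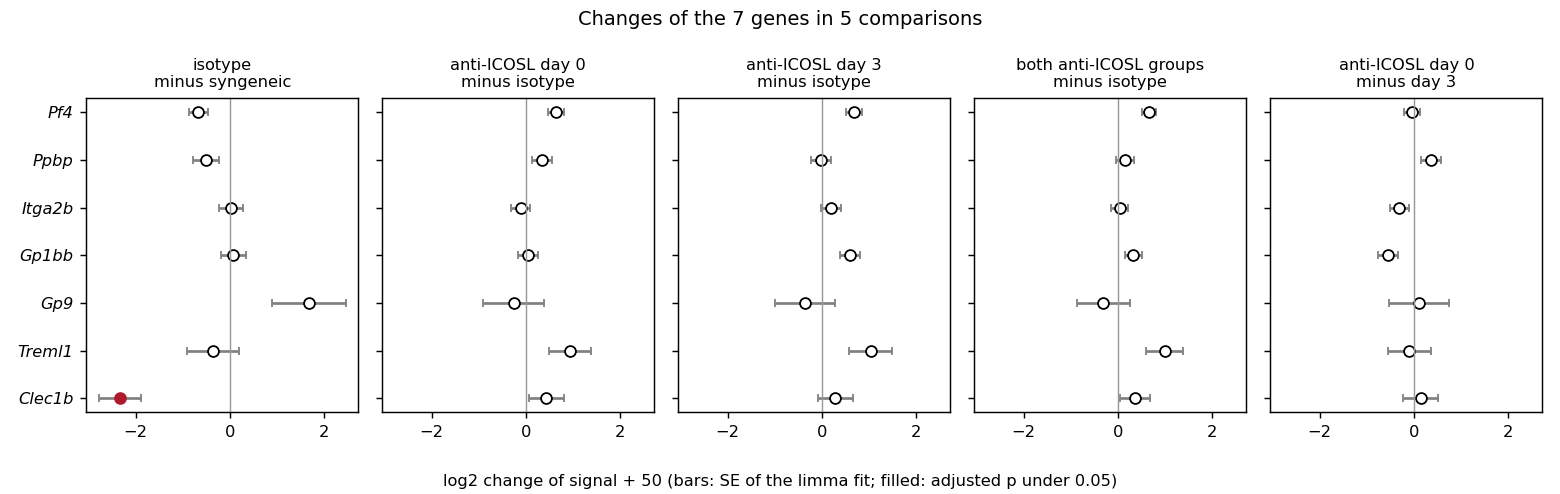
Log2 change of signal + 50 for the 7 genes in 5 comparisons. Points are fitted changes, bars are SE of the limma fit and the filled point, Clec1b between isotype and syngeneic arrays (−2.33), is the 1 value with an adjusted p under 0.05; the bars of Pf4 lie above 0 in all 3 comparisons of antibody with isotype.

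The summed signal of the 7 genes was 1268 and 1355 on the day 0 arrays, with 1433 and 1508 on the day 3 arrays, against 999.7 and 992.2 on the isotype arrays. Without Pf4 it was 857.5 to 928.9 and 1033 to 1039, against 730.6 to 761.3. The order of the groups was the same with and without Pf4. Other markers differed between these groups as well. The summed macrophage markers were 16356 to 17107 on the day 0 arrays, with 13416 to 14553 on the day 3 arrays, against 9996 to 10399 on the isotype arrays. Of the 13 macrophage markers 0 passed limma in either comparison, where 0% of tested probe sets passed. At an unadjusted p under 0.05 were 9 from day 0, against 7.18% of tested probe sets, and 8 from day 3, against 10.2%. The summed neutrophil markers were 14627 to 15272 on the day 0 arrays, with 11420 to 12168 on the day 3 arrays, against 11114 to 11426 on the isotype arrays. Of the 10 neutrophil markers 10 had values above 0 from day 0 and 5 from day 3. Over all tested probe sets 52.7% and 54.3% had values above 0. Of these markers 0 passed the limma threshold. At an unadjusted p under 0.05 were 2 from day 0 and 1 from day 3, against 7.18% and 10.2% of tested probe sets. The summed erythroid markers were 6764 to 7378 on the day 0 arrays, with 9920 to 11077 on the day 3 arrays, against 8223 to 8249 on the isotype arrays. Of the 10 tested erythroid markers 1 had a value above 0 from day 0 and 9 from day 3, against 52.7% and 54.3%. In each comparison 0 passed the limma threshold and 2 had an unadjusted p under 0.05, against 7.18% and 10.2%. The day 0 sums thus lay above isotype for neutrophil and below it for erythroid markers, and the day 3 sums above isotype for erythroid markers. Summed lymphocyte markers and Ptprc were 33877 to 34104 on the day 0 arrays, with 33415 to 35656 on the day 3 arrays, against 38045 to 42981 on the isotype arrays. The Gapdh ratio was 0.794 to 0.821 on the day 0 arrays, with 0.838 to 0.865 on the day 3 arrays, against 0.767 to 0.784 on the isotype arrays. That of Actb was 0.982 to 1.020 on the day 0 arrays, with 0.967 to 0.991 on the day 3 arrays, against 1.004 to 1.021 with isotype. Mouse macrophages can also transcribe Pf4. The part of these differences in the Pf4 values was not tested.

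Of the 57 other megakaryocyte and platelet genes 0 passed limma in either comparison, where 0% of tested probe sets passed. An unadjusted p under 0.05 was found for 4 of the 57 from day 0 (7.02%), against 7.18% of tested probe sets, so that count was at the background share. From day 3 it was found for 12 (21.1%), against 10.2%. The median change over the 57 was −0.0021 from day 0 and 0.03 from day 3, against 0.02 and 0.03 over all tested probe sets. Kit had the largest change of the agonist receptors in both. Its signal was 199.4 and 186.3 on the day 0 arrays, with 194.8 and 213.5 on the day 3 arrays, against 104.4 and 78.3 on the isotype arrays. All 4 antibody arrays were above both isotype arrays (0.82 ± 0.15 SE with both antibody groups against isotype, limma adjusted p = 0.296). F2rl2, the thrombin receptor PAR3 of mouse platelets, had 305.2 and 355.0 from day 0, with 286.6 and 296.2 from day 3, against 215.1 and 185.2 with isotype (pooled 0.53 ± 0.15, adjusted p = 0.410). In the day 0 comparison the largest values of the other lists were Selp (P-selectin, 0.94 ± 0.40) and Gp5 (0.50), Hps1 (0.84) and Thbs1 (thrombospondin, 0.70), Itpr2 (−0.35) and Syk (−0.27), and Runx1 (−0.78) and Rbm15 (0.45). In the day 3 comparison they were F11r (1.14 ± 0.40) and Esam (0.52), F13a1 (0.64) and Vps33b (−0.53), Gnaq (−0.71) and Itpr2 (−0.58), and Tal1 (0.54) and Mafg (−0.51), with P2ry12 (0.56) beside Kit. The smallest adjusted p among these was 0.334, that of Kit from day 3. Some of these values rested on dim arrays. Hps1 was 41.9 and 207.2 and F11r 37.1 and 14.6 on the isotype arrays. Runx1 was 31.7 and 180.4 on the day 0 arrays. With both antibody groups set against isotype 0 of the 57 passed limma. An unadjusted p under 0.05 was found for 7 (12.3%), near the 9.35% of tested probe sets. Beside Kit and F2rl2 the largest pooled values were those of F11r (0.66), Selp (0.53), Hps1 (0.64), Vps33b (−0.48), Itpr2 (−0.47), Gnaq (−0.41), Mef2c (−0.32) and Mafg (−0.28).

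The comparison of day 0 with day 3 asks how the first day of the antibody bears on the readout. For the 7 genes 0 passed limma, where 0% of tested probe sets did, and 1 of 7 (Gp1bb) had an unadjusted p under 0.05, against 6.79%. Values of the antibody groups were fully separate for 3 of 7 genes, against 39%. Ppbp was higher on both day 0 arrays (0.36 ± 0.22, adjusted p = 0.815), while Itga2b (−0.31 ± 0.21, adjusted p = 0.831) and Gp1bb (−0.55 ± 0.22, unadjusted p = 0.0415, adjusted p = 0.733) were lower on both. The difference of Pf4 was −0.04 with a 95% interval of −0.45 to 0.36, and its sign turned under median centring (0.01). The median change of the 7 genes was −0.04. Among the 57 other genes 0 passed limma, with 5 (8.77%) at an unadjusted p under 0.05, near the 6.79% of tested probe sets. Tal1 was 184.0 and 257.4 on the day 0 arrays, against 366.2 and 540.9 on the day 3 arrays (−0.89 ± 0.24, adjusted p = 0.649). All 10 tested erythroid markers had values below 0, while 47.8% of tested probe sets had values above 0. Of these markers 0 passed the limma threshold and 6 had an unadjusted p under 0.05, against 6.79% of tested probe sets. The summed erythroid markers were 6764 to 7378 on the day 0 arrays, against 9920 to 11077 on the day 3 arrays. Beside Tal1, the largest differences of the lists included Runx1 (−1.06), F11r (−0.97), Selp (0.82), F5 (0.76) and Gnaq (0.60). The others were Thbs1 (0.54), Tln1 (0.43), P2ry12 (−0.33) and Tbxa2r (−0.19). Apart from Tal1, their adjusted p-values were 0.706 (Thbs1) and above. Several varied widely between arrays of 1 group. Runx1 was 31.7 and 180.4 and F11r 4.9 and 80.2 on the day 0 arrays. Gnaq was 27.2 and 85.3 on the day 3 arrays.

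The 7 genes did not share 1 profile over the arrays. Each profile was centred on its own mean, on the log2 scale, and the distance between profiles was the root mean square of their differences over the 7 arrays, which come from 4 groups. The mean profile of the 7 genes was lowest on the isotype arrays (−0.20 and −0.25) and between 0.04 and 0.14 on the others. Pf4 was nearest to it (0.18), then Itga2b (0.22), Ppbp (0.27) and Gp1bb (0.28). Treml1 (0.51), Clec1b (0.77) and Gp9 (0.85) lay farther away than the median of 3116 other genes with a range of at least 1 (0.46), although each member is part of that mean. The closest pair of members was Itga2b with Gp1bb (0.27) and the most distant was Gp9 with Clec1b (1.52). The 8 genes nearest to the mean profile were Lactb (0.21), Gopc (0.21), Tsen15 (0.21), Sppl3 (0.21), Mmp2 (0.22), Vps26a (0.22), Taf1a (0.22) and Dph6 (0.22). None of them is in the 5 lists of megakaryocyte and platelet genes. Sppl3, an intramembrane protease, was 825.9 and 914.3 on the day 0 arrays, with 1170 and 1092 on the day 3 arrays, against 551.9 and 662.9 on the isotype arrays. Its syngeneic value was 959.5. As with Pf4, both isotype arrays lay below all others.

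The spread between arrays of 1 group limits what these values show. Over tested probe sets the median ratio of the higher to the lower array was 1.20 for day 0, 1.16 for day 3 and 1.22 for isotype. For Pf4 the ratio was 1.04 for day 0, 1.20 for day 3 and 1.10 for isotype. The highest ratios among the members were 9.90 for Gp9 (day 3), 3.90 for Treml1 (isotype) and 3.08 for Clec1b (day 0), each with 1 array under the testing level of 99.7.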

How the data were processed

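Spleen cell RNA of 7 samples was measured on 7 arrays. The deposited values are linear MAS5 signal intensity per probe set, per the submitters' processing notes, which give no version, and detection calls were not used here. The 2% trimmed means of the arrays were 500.18 to 500.19, so no further scaling was applied; array medians were 145.3 to 174.3. Of 22690 probe sets, 64 manufacturer controls were left out. The platform annotation gave 1 symbol to 20380, several to 691 and none to 1555, and only those with 1 symbol were named.

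Signals were analysed as log2(signal + 50), so changes of dim genes are understated. Testing covered probe sets with a group mean of 99.7 (the 40th percentile of signals) or more, and used limma 3.58.1 in R 4.3.3, in 1 fit over 7 arrays (3 residual and 3.36 prior degrees of freedom), two-sided, with Benjamini-Hochberg adjustment over 15372 probe sets. A gene counts by its probe set with the highest mean. The fit was tested on simulated data. The number of arrays limits precision. No 2 arrays held equal values beyond 0.00442% of probe sets.

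Members and lists were chosen with earlier results of these data known. All member probe sets are named. Of each of the 5 lists of other megakaryocyte and platelet genes those that passed are named, at most 6 by size. Where fewer than 2 passed, the 2 largest are named. Markers of other cell types are given as counts and sums, apart from Kit, Cd4 and Cd163. Further list genes named (Fli1, Itgb3, Gp5) were chosen after their values were seen. The 8 nearest genes were taken with a range of at least 1 on the log2 scale. Promoter windows of all 7 genes came from RefSeq (GRCm38.p6). Alternatives covered the pseudocount (16, 100), the filter (60th percentile, absent), scaling (quantile, median), a block by sample number, fits of only the groups compared, trended robust variances, and leaving out single arrays.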

Additional observations from a re-analysis of the deposited data

How the results depend on the processing

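With 0 of 7 genes called in each of the 4 comparisons among allogeneic groups, no alternative gave a call. With the sample number as a block, fitted to the 6 allogeneic arrays, 0 members and 0 other megakaryocyte and platelet genes passed in each of these comparisons, and the block changed no other call. The deviations of equally numbered arrays correlated at −0.01 (isotype with day 0), 0.07 (isotype with day 3) and 0.04 (day 0 with day 3), and the labels do not say that a number marks a shared mouse or day. No paired analysis of isotype against syngeneic was possible because the syngeneic array carries no number. Between isotype and syngeneic arrays the count of 1 was 0 with a pseudocount of 16 or no filter and 2 (Clec1b and Gp9) with the compared groups alone. It was 0 to 1 with 1 array left out, and the 1 was Gp9, not Clec1b, without either day 3 array. The count of 10 other genes was 4 with no filter, 5 with the compared groups alone and 1 to 6 with 1 array left out. Over all tested probe sets 542 passed with no filter, 568 with the compared groups alone, 1616 with the higher filter, 1786 with trend and robust options and 410 to 692 with 1 array left out, against 1017. Among the allogeneic groups 0 passed, against 21, 5, 21 and 12 with trend and robust options, 13, 8, 6 and 7 with the higher filter and 3, 2, 1 and 6 with a pseudocount of 100 (day 0, day 3 and both against isotype, then day 0 against day 3).

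Of the 35 fitted changes 24 values under alternatives had the opposite sign, none of them past the threshold. Quantile normalization turned Gp1bb for day 0 against isotype (−0.0028) and Itga2b for both antibody groups against isotype (−0.024), and median centring turned the same value of Itga2b (−0.033) and Pf4 for day 0 against day 3 (0.010). With 1 array left out Clec1b ran from −0.42 to 0.70 for day 0 against day 3 and from −0.13 to 0.98 for day 0 against isotype. Gp1bb ran from −0.12 to 0.23 for day 0 against isotype and from −0.11 to 0.24 for isotype against syngeneic. Gp9 ran from −0.98 to 1.20 for day 0 against day 3, from −1.45 to 0.73 for day 3 against isotype and from −0.85 to 0.24 for both against isotype. Itga2b ran from −0.28 to 0.056 for day 0 against isotype, from −0.13 to 0.21 for both against isotype and from −0.14 to 0.20 for isotype against syngeneic. Pf4 ran from −0.16 to 0.076 for day 0 against day 3 and Ppbp from −0.17 to 0.13 for day 3 against isotype. Treml1 ran from −0.55 to 0.36 for day 0 against day 3 and from −0.95 to 0.22 for isotype against syngeneic. The cause of the differences between arrays was not tested.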
